A study of Mus musculus with 6 samples.

Results

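The genes of vascular growth and vessel stability described here are 3 vascular endothelial growth factor (VEGF) ligands, Vegfa, Vegfb and Vegfc, the VEGF receptors Flt1 and Kdr, the angiopoietins Angpt1 and Angpt2 with their receptor Tek, and the peptide ligand Apln with its receptor Aplnr. They were chosen by symbol, and all 10 were found among the 23473 gene-symbol rows of a table of 56826 rows, in which the other 33353 are cDNA clones. Total RNA of brain tissue from adult male C57BL/6 mice, 8 to 9 weeks old, was depleted of ribosomal RNA and sequenced. In the 3 ischemia/reperfusion libraries the right middle cerebral artery had been blocked with a filament for 1 h and blood flow restored for 6 h, a model of ischemic stroke. The 3 sham libraries came from mice with the same operation without the filament. Both groups thus carry the anaesthesia (chloral hydrate) and the neck surgery. The labels do not say which side or region of the brain was taken, or that each library is a separate animal, and the p-values therefore reflect library-to-library spread, part or all of which may be technical.

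VEGF-A is released by astrocytes, neurons and other cells, acts on endothelium mainly through the receptor encoded by Kdr, and opens the blood-brain barrier as well as driving vessel sprouting. Flt1 binds VEGF-A and VEGF-B tightly, signals weakly and acts largely as a trap for the ligand. Angiopoietin 1, made by mural and other perivascular cells, activates Tek and keeps vessels quiescent, whereas angiopoietin 2, stored in endothelium, mostly opposes it and is released from activated vessels. Apelin, which is made by endothelium at vessel tips and also by neurons, acts on the G protein-coupled receptor Aplnr.

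Library totals were 45425867 to 48563351 counts in ischemia/reperfusion and 48130054 to 49686109 counts in sham. No marker of neurons, astrocytes, microglia, oligodendrocytes, endothelium, mural cells or choroid plexus listed for the check was at 0 in all 6 libraries. Libraries stood apart within both groups. Choroid plexus markers summed to 430, 21.4 and 1222 CPM (each count divided by the library total and multiplied by 1000000) in ischemia/reperfusion replicates 1, 2 and 3, against 557 to 772 CPM in sham. Oligodendrocyte markers reached 8165 CPM in ischemia/reperfusion replicate 3, against 3175 to 4656 CPM in the other 5 libraries. Sham replicate 2 stood apart in endothelial genes, as its profile shows. In bulk tissue, fewer cells of a type and less RNA per cell cannot be told apart.

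The 250 bases before the RefSeq start sites of Vegfa, Kdr and Flt1 (build GRCm38.p6, gene strand, 5′ to 3′) are shown. These are among the genes that the hypoxia response is known to reach. Whether the tissue sequenced in the ischemia/reperfusion group had itself been ischemic is not known from the labels. Capitals mark ACGTG or GCGTG, the core letters of the site bound by hypoxia-inducible factors, searched on both strands, so that CACGT and CACGC are the same letters read on the other strand. RefSeq gave such windows for 7 of the 10 members.
Vegfa, chr17:46032378-46032627, minus strand: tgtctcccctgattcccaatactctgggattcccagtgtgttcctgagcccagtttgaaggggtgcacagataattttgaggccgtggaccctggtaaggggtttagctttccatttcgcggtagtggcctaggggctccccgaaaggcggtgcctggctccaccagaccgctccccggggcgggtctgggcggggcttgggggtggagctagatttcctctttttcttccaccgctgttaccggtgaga
Kdr, chr5:75978456-75978705, minus strand: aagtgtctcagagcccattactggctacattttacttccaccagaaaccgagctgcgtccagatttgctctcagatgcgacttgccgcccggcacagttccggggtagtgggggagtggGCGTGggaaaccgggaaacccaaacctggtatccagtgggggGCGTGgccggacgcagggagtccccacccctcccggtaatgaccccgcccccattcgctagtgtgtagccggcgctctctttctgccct
Flt1, chr5:147726012-147726261, minus strand: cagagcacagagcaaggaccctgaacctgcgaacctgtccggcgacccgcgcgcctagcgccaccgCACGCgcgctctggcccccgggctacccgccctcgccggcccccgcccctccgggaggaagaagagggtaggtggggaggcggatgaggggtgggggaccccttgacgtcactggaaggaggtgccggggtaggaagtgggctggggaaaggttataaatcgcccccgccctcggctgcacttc

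The Kdr window held 2 matches, at 127 to 131 and 85 to 89 bases before the start, the Flt1 window 1 match, at 180 to 184 bases, and the window of this Vegfa start 0. A second RefSeq start of Vegfa, inside the gene, had 2 matches in its window, from 46025164 to 46025413. That window lies within the span of Vegfa itself, so its letters need not be promoter sequence. Among the members whose windows are not printed, Vegfb had 2 matches, and Vegfc, Tek and Apln had 0. Of 32851 windows of the same length in the RefSeq table, 38.6% held at least 1 match. The GC box letters GGGCGG, also searched on both strands, occurred 2 times in the Vegfa window, 2 times in the Kdr window and 3 times in the Flt1 window, and in 32.7% of all windows. The letters TGACGTCA, the cAMP response element, stood in the Flt1 window, 74 to 81 bases before the start, and in 1.55% of all windows. A match is a description of these letters only. Sequence outside the windows was not searched, so a window with 0 matches does not mean that the gene lacks such sites.

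Levels are given as the deposited RPKM (counts scaled both to row length in kilobases and to a library of 1000000), which allow genes to be compared. In ischemia/reperfusion the order of mean levels was Vegfa, Vegfb, Apln, Flt1, Angpt2, Angpt1, Kdr, Tek, Vegfc and Aplnr, and only the steps from Flt1 to Angpt2 and from Vegfc to Aplnr separated neighbours whose 3 libraries did not overlap. In sham the order was Vegfa, Vegfb, Apln, Flt1, Angpt1, Angpt2, Tek, Kdr, Vegfc and Aplnr, with neighbours apart between Vegfb and Apln, Flt1 and Angpt1, Kdr and Vegfc, and Vegfc and Aplnr. Over all 6 libraries Vegfa had a mean of 9.75 RPKM, above 73.9% of gene-symbol rows, and Vegfc 0.760 RPKM, above 41.1%. Aplnr, at 0.0535 RPKM, stood above 24%.

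None of the members passed the test. With edgeR's quasi-likelihood test and Benjamini-Hochberg adjustment over 40170 rows, 0 of the 9 members that passed the low-count filter had an adjusted p under 0.05, where 1 of all rows (0.00249%) was called. DESeq2 called 0 of the 9, against 1.8% of the rows to which it gave an adjusted p, and limma-voom 0 of the 9, against 0.00996% of rows. At an unadjusted p under 0.05 there were 3 of the 9 (edgeR), Vegfa and Kdr higher and Angpt1 lower, where 15.1% of gene-symbol rows tested reached it, 6.39% higher and 8.71% lower, and 15.6% of all rows, 8.73% higher and 6.9% lower. Groups of RPKM did not overlap for 2 of the 9, Kdr and Vegfc. The share was 19.1% of gene-symbol rows tested, 10.3% higher and 8.79% lower in ischemia/reperfusion, and 20.9% of all rows. RPKM lack the scaling (TMM) factors of the fit, which were 1.004 to 1.028 in ischemia/reperfusion and 0.9686 to 0.9899 in sham. With those factors Kdr in ischemia/reperfusion replicate 1, and Vegfc in replicates 1 and 2, would fall slightly below sham replicate 2. The median log2 fold change of the 9 was 0.16, beside −0.04 over gene-symbol rows tested. Aplnr was under the low-count filter.

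**Figure D1:**
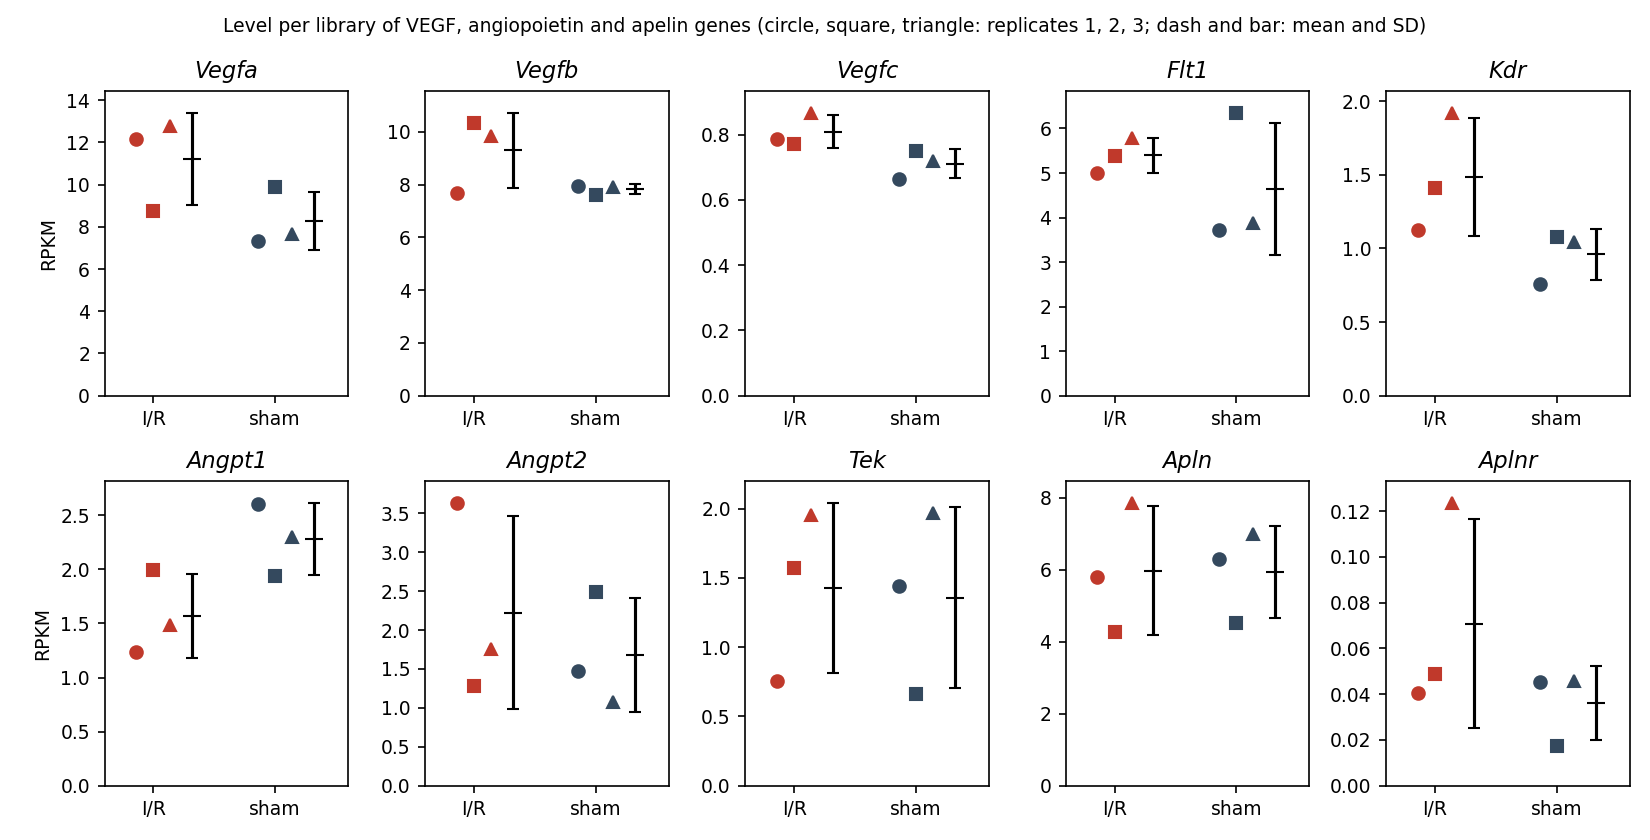
RPKM of each gene (vertical axis, from 0) in the 3 ischemia/reperfusion libraries (I/R, red) and the 3 sham libraries (sham, dark blue); circles, squares and triangles are replicates 1, 2 and 3, and the dash with its bar is the mean with SD. Kdr and Vegfc have groups that do not overlap on this scale, and in Angpt2 and Tek the highest library of each group is over 2 times the lowest.

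Among the ligands of the VEGF family, Vegfa had the highest mean, although Vegfb was above it in 3 of the 6 libraries. Vegfa averaged 11.2 ± 2.17 RPKM in ischemia/reperfusion and 8.29 ± 1.39 RPKM in sham (SD, n = 3 each). It had 12.2, 8.73 and 12.8 RPKM in ischemia/reperfusion replicates 1, 2 and 3, against 7.33, 9.88 and 7.65 RPKM in sham replicates 1, 2 and 3. Replicates 1 and 3 of ischemia/reperfusion were above every sham library, while replicate 2 lay below sham replicate 2. Its log2 fold change was 0.38 ± 0.16 (SE), with a 95% interval of 0.03 to 0.72 and an adjusted p of 0.293 (edgeR). Without sham replicate 2 it was 0.53 (edgeR adjusted p = 0.294), and without ischemia/reperfusion replicate 3 it was 0.28 (0.570). The gene lies on chromosome 17 from 46016993 to 46032377, minus strand (mm10), and gene-level counts do not separate its splice forms. A cDNA clone row of 1676 bases inside the gene, at its 3′ end, had 999, 613 and 927 counts in ischemia/reperfusion and 599, 845 and 598 in sham. As for Vegfa itself, replicates 1 and 3 of ischemia/reperfusion were above every sham library. The RPKM of the clone was 0.908 to 1.06 times that of Vegfa in each library. Whether a read could count for both rows is not stated, and the clone is not taken as a separate observation.

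Vegfb, a ligand of Flt1 with little angiogenic action and a role in cell survival, had 7.68, 10.3 and 9.86 RPKM in ischemia/reperfusion replicates 1, 2 and 3, against 7.94, 7.60 and 7.92 RPKM in sham. The sham libraries lay close together, and replicates 2 and 3 of ischemia/reperfusion were above them while replicate 1 was among them. Its log2 fold change was 0.19 ± 0.14 (SE; edgeR adjusted p = 0.529). It was 0.10 without ischemia/reperfusion replicate 2 and 0.31 without replicate 1 (edgeR adjusted p = 0.795 and 0.188). Vegfc, known mainly as a lymphatic growth factor, had 0.788, 0.772 and 0.866 RPKM in ischemia/reperfusion, against 0.663, 0.751 and 0.718 RPKM in sham. In RPKM all 3 ischemia/reperfusion libraries were above all sham libraries, by a small margin that the scaling factors of the fit remove. Counts were only 62 to 74 per library. The log2 fold change was 0.13 ± 0.22 (SE; edgeR adjusted p = 0.808), with a 95% interval of −0.35 to 0.61 that includes 0, and 0.08 without either ischemia/reperfusion replicate 3 or sham replicate 1. Vegfb lies on chromosome 19 from 6982472 to 6987651, minus strand, and Vegfc on chromosome 8 from 54077532 to 54186454, plus strand (mm10).

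Of the VEGF receptors, Kdr had the larger log2 fold change, and lies on chromosome 5 from 75933270 to 75978428, minus strand (mm10). Kdr averaged 1.48 ± 0.402 RPKM in ischemia/reperfusion and 0.960 ± 0.173 RPKM in sham (SD, n = 3 each). Its libraries had 1.13, 1.41 and 1.92 RPKM in ischemia/reperfusion replicates 1, 2 and 3, against 0.761, 1.07 and 1.04 RPKM in sham. In RPKM every ischemia/reperfusion library was above every sham library. Replicate 1 exceeded the highest sham library only slightly, a margin that the scaling factors of the fit remove. The log2 fold change was 0.57 ± 0.21 (SE), with a 95% interval of 0.12 to 1.03 and an adjusted p of 0.245 (edgeR). It was 0.35 without ischemia/reperfusion replicate 3, the library with the highest oligodendrocyte and choroid plexus markers, and 0.73 without replicate 1, with edgeR adjusted p of 0.549 and 0.0609. The part of those other cell types in the value was not tested.

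Flt1, on chromosome 5 from 147562196 to 147725988, minus strand (mm10), was more abundant than Kdr in each library. It had 5.004, 5.39 and 5.79 RPKM in ischemia/reperfusion replicates 1, 2 and 3, against 3.71, 6.35 and 3.88 RPKM in sham. The ischemia/reperfusion libraries lay above sham replicates 1 and 3 and below sham replicate 2, which had the highest value of all 6. The fitted log2 fold change was 0.16 ± 0.20 (SE; edgeR adjusted p = 0.737), with 0.46 without sham replicate 2 (adjusted p = 0.264), 0.01 without sham replicate 1 (0.986) and 0.03 without sham replicate 3 (0.969). Flt1 also makes a soluble form that lacks the kinase domain, which counts per gene do not separate. A clone row inside the gene on the same strand, from 147644778 to 147646807, had 75, 82 and 72 counts in ischemia/reperfusion and 43, 90 and 55 in sham, and its log2 fold change was 0.29 ± 0.29 (SE; edgeR adjusted p = 0.659). Like Flt1, it was highest in sham replicate 2. A second same-strand clone row, which overlaps the 3′ end of Flt1 by 1080 bases, had 202, 272 and 234 counts in ischemia/reperfusion and 184, 207 and 228 in sham, and was not highest in sham replicate 2.

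The ratio of Kdr to Flt1 within a library needs no scaling between libraries. On the RPKM scale it was 0.225, 0.261 and 0.331 in ischemia/reperfusion replicates 1, 2 and 3, against 0.205, 0.169 and 0.269 in sham. The groups overlapped, with sham replicate 3 above 2 of the ischemia/reperfusion libraries, and the mean log2 ratio was 0.35 higher in ischemia/reperfusion (exact permutation test, two-sided, p = 0.30, adjusted p = 0.36 over 6 ratios). With 3 libraries against 3 this test cannot go below 0.1.

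**Figure D2:**
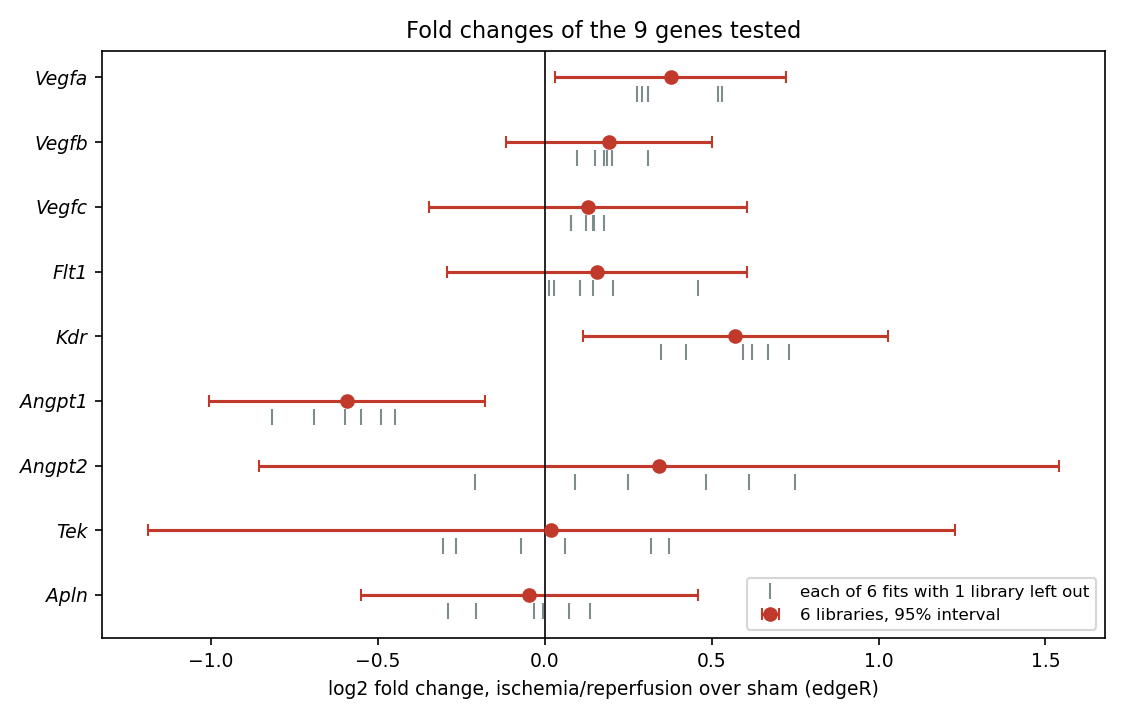
Log2 fold change of ischemia/reperfusion over sham (horizontal axis, edgeR) for the 9 genes that passed the low-count filter; the red points and bars are the values of all 6 libraries with 95% intervals, and the grey ticks are the 6 values obtained when 1 library is left out. Intervals of Vegfa, Kdr and Angpt1 exclude 0 before adjustment, and the ticks of Angpt2, Tek and Apln fall on both sides of 0.

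The angiopoietins had log2 fold changes of opposite sign. Angpt1 lies on chromosome 15 from 42424725 to 42676795, minus strand (mm10). Angpt1 averaged 1.57 ± 0.388 RPKM in ischemia/reperfusion and 2.28 ± 0.331 RPKM in sham (SD, n = 3 each), the largest negative value among the members. Its libraries had 1.23, 1.99 and 1.49 RPKM in ischemia/reperfusion replicates 1, 2 and 3, against 2.60, 1.94 and 2.30 RPKM in sham. Replicates 1 and 3 of ischemia/reperfusion were below every sham library, and replicate 2 was slightly above sham replicate 2. The log2 fold change was −0.59 ± 0.19 (SE), with a 95% interval of −1.01 to −0.18 and an adjusted p of 0.208 (edgeR). It remained negative in each fit with 1 library left out, from −0.82 to −0.45, and the adjusted p was 0.0953 with DESeq2.

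A further 3 rows overlap the 5′ end of Angpt1 on the other strand. These cDNA clones start 471 to 555 bases inside the gene on chromosome 15 and extend away from it, and 2 of them, which share most of their span, had 46, 57 and 54 counts and 43, 56 and 53 counts in ischemia/reperfusion replicates 1, 2 and 3, against 78, 65 and 81 counts and 82, 66 and 77 counts in sham. For both, all ischemia/reperfusion libraries were below all sham libraries, with log2 fold changes of −0.50 ± 0.24 and −0.55 ± 0.24 (SE; edgeR adjusted p = 0.338 and 0.306). The third, spanning 2071 bases, had a log2 fold change of −0.26 ± 0.26 (SE; adjusted p = 0.662). Whether strand was used in counting is not known from the labels, and reads of Angpt1 and of these clones in the shared bases cannot be told apart.

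Angpt2 varied more between libraries of a group than between the groups. It had 3.63, 1.28 and 1.76 RPKM in ischemia/reperfusion replicates 1, 2 and 3, against 1.48, 2.49 and 1.07 RPKM in sham. The highest and the lowest libraries of ischemia/reperfusion differed 2.84-fold, and those of sham 2.32-fold. Ischemia/reperfusion replicate 1 and sham replicate 2 were the high libraries, and the groups overlapped. In log2 terms the fold change was 0.34 ± 0.49 (SE; edgeR adjusted p = 0.776), and it turned to −0.21 without ischemia/reperfusion replicate 1. The gene lies on chromosome 8 from 18690263 to 18741562, minus strand (mm10), wholly within the span of Mcph1, a gene of chromosome condensation and DNA repair on the other strand. Mcph1 had 747, 788 and 667 counts in ischemia/reperfusion and 790, 775 and 769 in sham, and did not share the high values of Angpt2 in ischemia/reperfusion replicate 1 and sham replicate 2.

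The receptor Tek, on chromosome 4 from 94739300 to 94874939, plus strand (mm10), had 0.757, 1.57 and 1.95 RPKM in ischemia/reperfusion replicates 1, 2 and 3, against 1.44, 0.665 and 1.97 RPKM in sham. Its low libraries, ischemia/reperfusion replicate 1 and sham replicate 2, were those in which Angpt2 was high. The log2 fold change was 0.02 ± 0.49 (SE; edgeR adjusted p = 0.988), with a 95% interval of −1.19 to 1.23. Within groups, the SD of log2 CPM was 0.751 for Tek and 0.692 for Angpt2, above 96.7% and 95.9% of gene-symbol rows tested, whose median was 0.174. A clone row at the 5′ end of Tek had 27, 58 and 60 counts in ischemia/reperfusion and 47, 30 and 54 in sham, low in the same libraries.

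The Angpt2 to Angpt1 ratio of RPKM was 2.95, 0.641 and 1.19 in ischemia/reperfusion replicates 1, 2 and 3, against 0.567, 1.28 and 0.467 in sham. Angpt2 was thus the more abundant angiopoietin in 2 of 3 ischemia/reperfusion libraries and in sham replicate 2. The mean log2 ratio was 0.91 higher in ischemia/reperfusion (exact permutation test, two-sided, p = 0.30, adjusted p = 0.36 over 6 ratios). Without ischemia/reperfusion replicate 1 the difference was 0.32, and without sham replicate 2 it was 1.35.

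**Figure D3:**
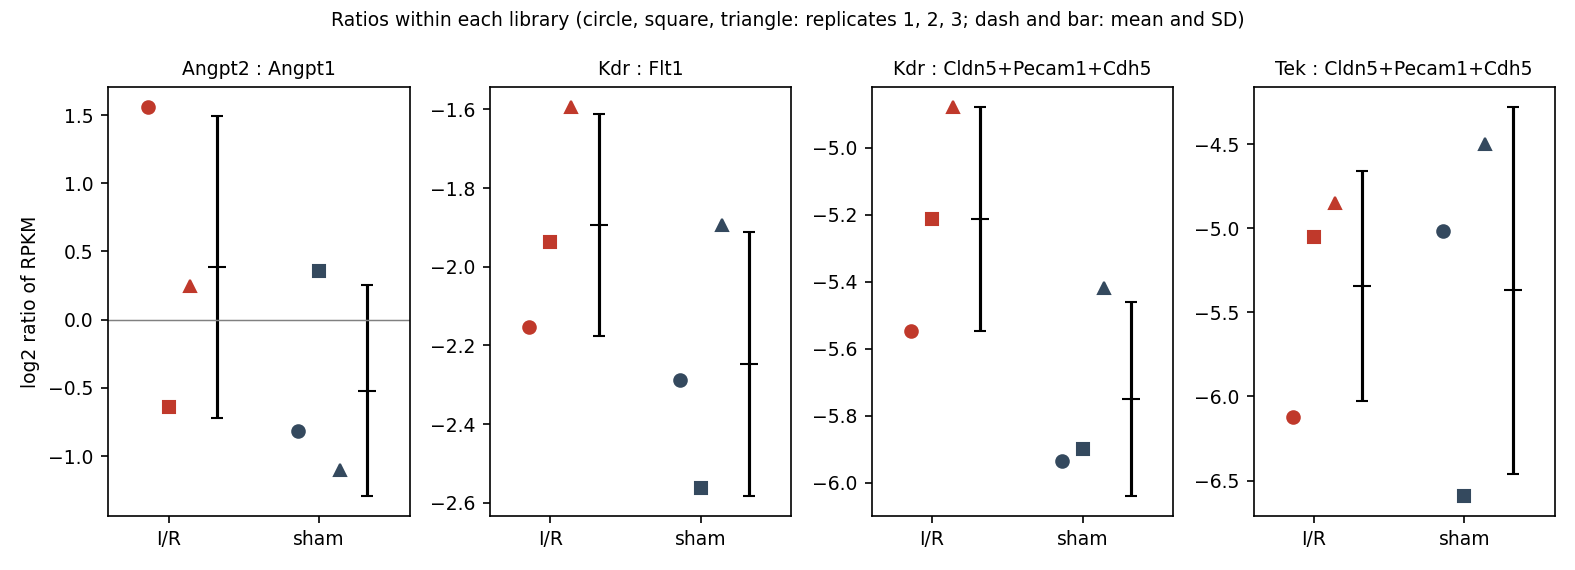
Log2 ratio of RPKM (vertical axes, separate scales) within each ischemia/reperfusion (I/R, red) and sham (dark blue) library; circles, squares and triangles are replicates 1, 2 and 3, and the dash with its bar is the mean with SD. The groups overlap in all 4 ratios, and ischemia/reperfusion replicate 1 and sham replicate 2 hold the highest Angpt2 to Angpt1 and the lowest Tek ratios of their groups.

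Apelin RNA was abundant and its receptor rare. Apln had 5.81, 4.27 and 7.85 RPKM in ischemia/reperfusion replicates 1, 2 and 3, against 6.30, 4.51 and 6.99 RPKM in sham. In both groups replicate 2 was lowest and replicate 3 highest. The log2 fold change was −0.05 ± 0.22 (SE; edgeR adjusted p = 0.939), with a 95% interval of −0.55 to 0.46. Apln lies on chromosome X from 48025146 to 48034852, minus strand, and Aplnr on chromosome 2 from 85136360 to 85139923, plus strand (mm10). Aplnr had 7, 8 and 20 counts in ischemia/reperfusion and 8, 3 and 8 in sham, highest in ischemia/reperfusion replicate 3 and lowest in sham replicate 2. Fitted without a low-count filter its log2 fold change was 0.88 ± 0.65 (SE; edgeR adjusted p = 0.595), a value that includes those 20 counts. Apln exceeded Aplnr 63.6-fold to 144-fold on the RPKM scale in ischemia/reperfusion and 139-fold to 258-fold in sham. The mean log2 ratio was 0.92 lower in ischemia/reperfusion, or −0.92 (exact permutation test, two-sided, p = 0.20, adjusted p = 0.36 over 6 ratios). This difference was −0.65 without either ischemia/reperfusion replicate 3 or sham replicate 2. The 258-fold ratio was that of sham replicate 2 and rests on its 3 counts of Aplnr. A count of 3, the most that a row at 0 would allow, corresponds to 0.0604 to 0.0660 CPM, for counting error only.

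To set the receptors against other endothelial RNA, each was divided by the summed RPKM of Cldn5, Pecam1 and Cdh5, genes of endothelial junctions. The Kdr ratio was 0.0214, 0.0270 and 0.0340 in ischemia/reperfusion replicates 1, 2 and 3, against 0.0164, 0.0167 and 0.0234 in sham, with 1 overlap, ischemia/reperfusion replicate 1 under sham replicate 3. The mean log2 ratio was 0.54 higher in ischemia/reperfusion (exact permutation test, two-sided, p = 0.20, adjusted p = 0.36 over 6 ratios), close to the log2 fold change of Kdr itself. For Flt1 the difference was 0.18 (p = 0.20, exact permutation test), and for Tek 0.03 (p = 1.0, exact permutation test). The Tek ratio was 0.0144, 0.0301 and 0.0346 in ischemia/reperfusion, against 0.0310, 0.0104 and 0.0442 in sham. In sham replicate 2 all 3 junction genes were themselves above the mean of the other sham libraries, which lowers the ratio there. Cldn5 made up most of the sum, with 52.2 RPKM in that library, beside 7.87 RPKM for Pecam1 and 4.12 RPKM for Cdh5. In sham replicates 1 and 3 Cldn5 had 37.6 and 35.2 RPKM. Cdh5, at 2.19 times the mean of the other sham libraries, was a small part of the sum. The ratios are thus mainly ratios to Cldn5.

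The 12 endothelial markers as a list had 7 positive and 5 negative log2 fold changes and a median of 0.02, and 0 were called by edgeR. At an unadjusted p under 0.05 edgeR had 1 in each direction. Their summed level was 248 to 286 CPM in ischemia/reperfusion and 238 to 279 CPM in sham. Mfsd2a, a lipid transporter of the blood-brain barrier, had 15.4, 9.33 and 11.1 RPKM in ischemia/reperfusion, against 18.8, 16.1 and 18.0 RPKM in sham, a log2 fold change of −0.62 ± 0.16 (SE; edgeR adjusted p = 0.162, DESeq2 adjusted p = 0.0249). It was lower in all 3 ischemia/reperfusion libraries, and was the 1 endothelial marker that DESeq2 called. Emcn, an endothelial sialomucin that promotes Kdr signalling, had 2.28, 2.21 and 2.61 RPKM in ischemia/reperfusion, against 1.49, 1.66 and 1.597 RPKM in sham (log2 fold change 0.52 ± 0.18 SE; edgeR adjusted p = 0.223). Of 10 pericyte and smooth muscle markers 9 were positive, with a median of 0.09, which was −0.02 without ischemia/reperfusion replicate 3 and 0.24 without replicate 1, and edgeR gave 0 of them an unadjusted p under 0.05.

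Sham replicate 2 had an endothelial profile unlike the other sham libraries. Slco1a4, an organic anion transporter, had 2.02 RPKM there against 7.23 and 8.22 RPKM in sham replicates 1 and 3. Abcb1a, the P-glycoprotein efflux pump, had 2.31 RPKM against 4.77 and 5.67 RPKM. These and Tek were 0.262, 0.443 and 0.390 times the mean of the other sham libraries, whereas Cdh5, Angpt2, Flt1 and Cldn5 were 2.19, 1.95, 1.67 and 1.44 times. The summed endothelial markers of the library were 238 CPM, the lowest of the 6, against 248 to 286 CPM in the other 5. Slco1a4 was singled out after its values were seen. In ischemia/reperfusion replicate 1, Tek was 0.429, Slco1a4 0.610 and Angpt2 2.39 times the mean of replicates 2 and 3, while Cdh5 was 1.14 and Flt1 0.895 times. Itm2a and Abcb1a, low in sham replicate 2, were also lower in this library, at 0.517 and 0.800 times that mean. Mfsd2a and Ly6c1, also low in sham replicate 2, were instead 1.51 and 1.22 times. Cldn5 and Erg, high in sham replicate 2, were 0.933 and 0.952 times. Striatal markers, which differ with the region taken, summed to 461 CPM in ischemia/reperfusion replicate 1 and 108 CPM in sham replicate 2, the highest and the lowest of the 6 libraries. Their part in these profiles was not tested.

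**Figure D4:**
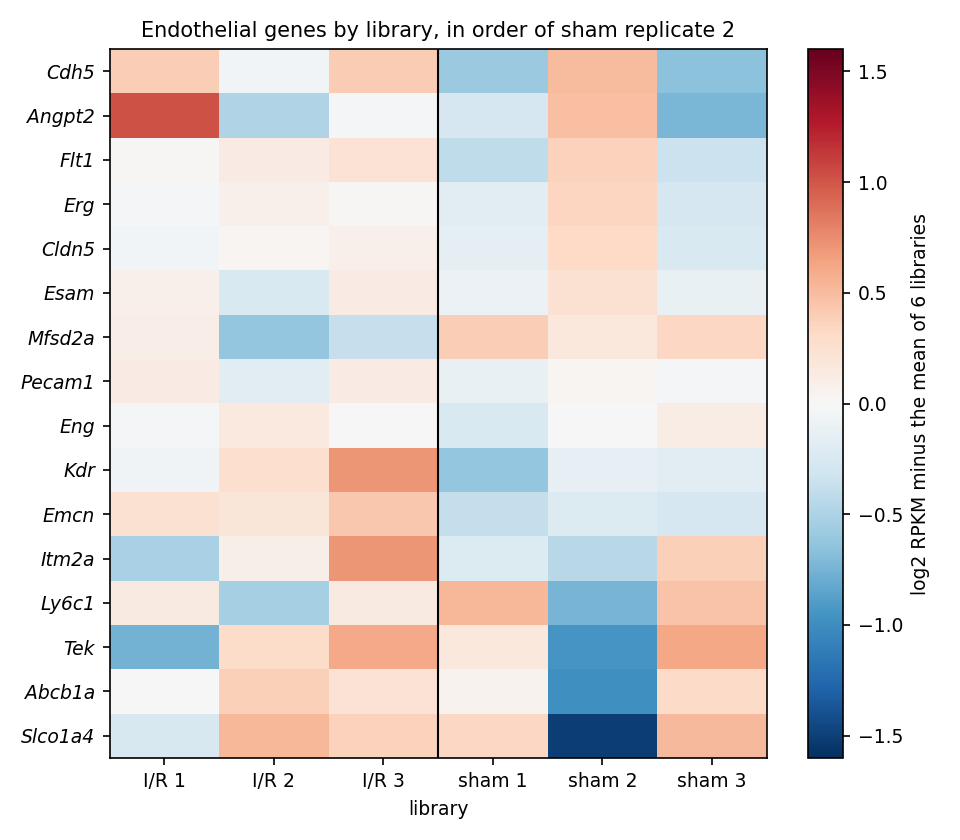
Log2 RPKM of 12 endothelial markers and of Angpt2, Flt1, Kdr and Tek, each minus its mean over the 6 libraries (colour, red above and blue below), by ischemia/reperfusion (I/R) and sham library; rows are sorted by sham replicate 2. Sham replicate 2 has Cdh5, Angpt2 and Flt1 at the top and Slco1a4, Abcb1a and Tek at the bottom, and ischemia/reperfusion replicate 1 shares the high Angpt2 and the low Tek.

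The nearest partners of the members were described in the same way, each list beside the median of −0.04 over gene-symbol rows tested. Of 5 other VEGF family genes, edgeR called 0 and had 1 in each direction at an unadjusted p under 0.05. Pgf, placental growth factor, a ligand of Flt1, had 2.13, 1.43 and 1.92 RPKM in ischemia/reperfusion, against 2.75, 2.74 and 2.75 RPKM in sham. All 3 ischemia/reperfusion libraries were below the closely grouped sham libraries, with a log2 fold change of −0.64 ± 0.18 (SE; edgeR adjusted p = 0.181, DESeq2 adjusted p = 0.0672). Nrp2, a coreceptor for VEGF and semaphorins, had 6.36, 5.04 and 5.57 RPKM against 4.60, 4.89 and 4.26 RPKM in sham (log2 fold change 0.24 ± 0.11 SE; edgeR adjusted p = 0.317). Vegfd and Flt4, the ligand and receptor of lymphatic vessels, had log2 fold changes of −0.60 ± 0.33 and 0.15 ± 0.20 (SE).

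Of 7 angiopoietin and Tie partners, 6 were tested, 4 of them positive with a median of 0.25, and edgeR called 0, with 1 at an unadjusted p under 0.05. This median was −0.0012 without ischemia/reperfusion replicate 3, 0.10 without sham replicate 1 and 0.39 without sham replicate 3. It includes the angiopoietin-like genes Angptl2 and Angptl4, with log2 fold changes of 0.31 and −0.18. The gene at that unadjusted p, Tie1, the orphan receptor that pairs with Tek, had 1.19, 1.68 and 2.30 RPKM in ischemia/reperfusion, against 1.04, 0.718 and 1.38 RPKM in sham. The groups overlapped, and the log2 fold change was 0.67 ± 0.27 (SE; edgeR adjusted p = 0.291). Ptprb, the endothelial phosphatase that restrains Tek, had a log2 fold change of 0.19 ± 0.21 (SE). Tie1 was lowest in sham replicate 2, as Tek was.

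Of 9 genes of endothelial tip cells, 7 were positive, with a median of 0.33, and edgeR called 0, with 1 in each direction at an unadjusted p under 0.05. The median was 0.11 without ischemia/reperfusion replicate 3, 0.19 without replicate 1 and 0.22 without sham replicate 1. Dll4, the Notch ligand that VEGF induces at vessel tips, had 0.782, 0.647 and 0.919 RPKM in ischemia/reperfusion, against 0.507, 0.590 and 0.302 RPKM in sham, with no overlap (log2 fold change 0.69 ± 0.26 SE; edgeR adjusted p = 0.257). Igfbp3 was lower in all ischemia/reperfusion libraries (log2 fold change −0.39 ± 0.13 SE; adjusted p = 0.223). Unc5b, a netrin receptor, reached 11.4 RPKM in ischemia/reperfusion replicate 3, against 4.45 and 6.30 RPKM in replicates 1 and 2 and 3.61 to 5.24 RPKM in sham. Of 7 genes that VEGF induces early in cultured endothelium, 6 were positive, with a median of 0.36 and edgeR calling 0, with 1 at an unadjusted p under 0.05. Their median was 0.19 without sham replicate 3 and 0.68 without sham replicate 2. The gene at that unadjusted p was Egr3, which neurons also induce with activity, at 10.3, 8.94 and 10.6 RPKM in ischemia/reperfusion, against 6.92, 7.28 and 8.11 RPKM in sham (log2 fold change 0.36 ± 0.12 SE; edgeR adjusted p = 0.224).

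The VEGF receptor signalling list, of 13 enzymes and adaptors that act below the receptors, had 6 positive and 7 negative values and a median of −0.02, which was 0.02 with upper-quartile scaling, and edgeR called 0, with 2 at an unadjusted p under 0.05. Ptk2, focal adhesion kinase, had 21.0, 19.3 and 19.8 RPKM in ischemia/reperfusion, against 16.3, 17.2 and 16.4 RPKM in sham (log2 fold change 0.21 ± 0.09 SE; edgeR adjusted p = 0.291). Of 17 targets of hypoxia-inducible factors, the class of genes to which Vegfa belongs, 7 were positive and 10 negative, with a median of −0.06 and edgeR calling 0. At an unadjusted p under 0.05 edgeR had 1 higher and 2 lower. P4ha1, a collagen prolyl hydroxylase, had 13.7, 8.93 and 11.4 RPKM in ischemia/reperfusion, against 7.90, 7.21 and 8.47 RPKM in sham (log2 fold change 0.47 ± 0.14 SE; adjusted p = 0.189). In the other direction, Pdk1, which limits the entry of pyruvate into mitochondrial metabolism, and Bnip3, which promotes the removal of mitochondria, had log2 fold changes of −0.30 ± 0.09 and −0.30 ± 0.11 (SE; adjusted p = 0.205 and 0.234), each lower in all 3 ischemia/reperfusion libraries. Among 8 factors and regulators of the hypoxia response, Arnt, the partner of the hypoxia-inducible factors, had a log2 fold change of 0.34 ± 0.13 (SE; adjusted p = 0.271).

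**Figure D5:**
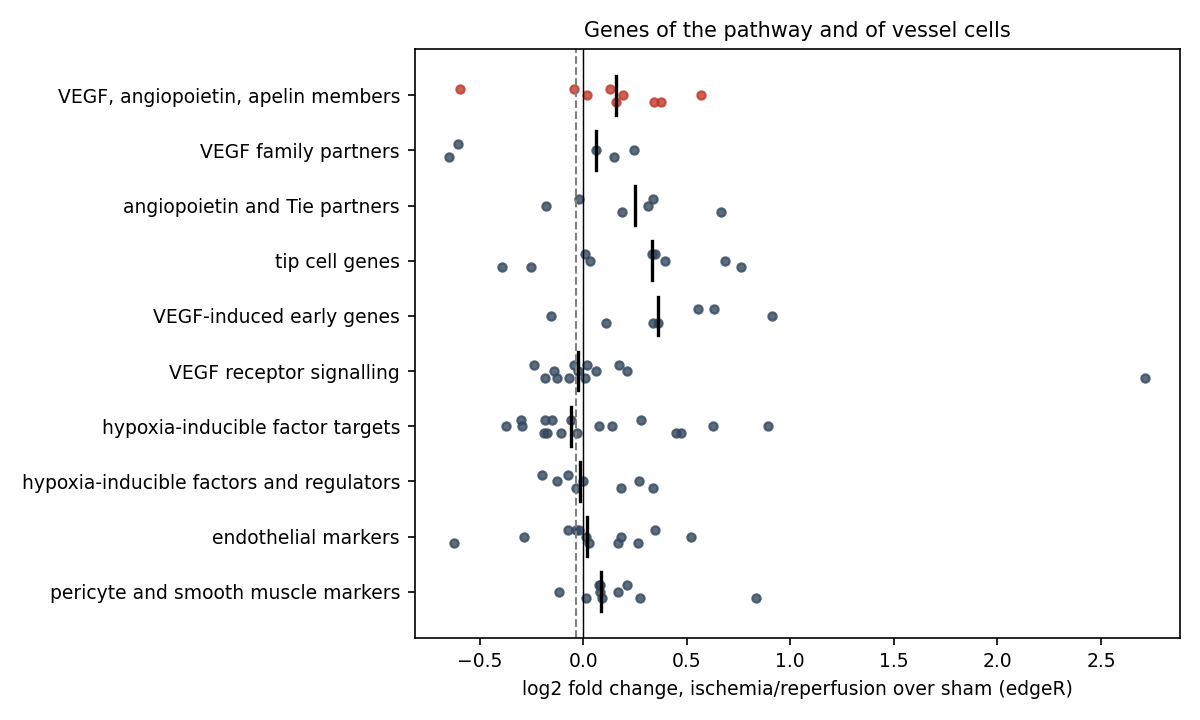
Log2 fold change of ischemia/reperfusion over sham (horizontal axis, edgeR) of the 9 members tested (red) and of the tested genes of 9 related lists (dark blue); the black bar is the list's median and the dashed line the median of gene-symbol rows tested. The medians of the tip cell and VEGF-induced early lists are 0.33 and 0.36, which move to 0.11 and 0.19 with 1 library left out, and that of hypoxia-inducible factor targets is −0.06.

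Markers of other cells were set beside these values, and edgeR called 0 of them. Of 9 markers of astrocytes, cells that supply Vegfa, 7 were negative, with a median of −0.34, and 4 were lower at an unadjusted p under 0.05 (edgeR), where 8.71% of gene-symbol rows were. DESeq2 called 1 of the 9 lower, Gjb6, an astrocyte connexin (adjusted p = 0.00318). They summed to 4460 to 5045 CPM in ischemia/reperfusion, against 5261 to 5356 CPM in sham. Of 7 microglia markers all 7 were positive, DESeq2 called 2 higher, and they summed to 148 to 199 CPM in ischemia/reperfusion, against 138 to 156 CPM in sham. Of 9 erythroid and neutrophil markers all 9 were positive, and DESeq2 called 2 higher, the neutrophil genes S100a8 and S100a9. They summed to 215 to 328 CPM in ischemia/reperfusion, against 148 to 268 CPM in sham. Hba-a1 and Hba-a2 nearly share their span and counts (2628 and 2651 in ischemia/reperfusion replicate 1), and are not separate observations. Over 16642 gene-symbol rows tested, 7360 were positive, and DESeq2 called 134 higher and 97 lower. The part of these cell types in the values of the members was not tested.

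Library profiles closest to those of the members were found among 14451 gene-symbol rows by the root mean square distance between log2 CPM centred on each gene's mean over the 6 libraries. Nearest to Vegfa were Lmbr1l, Spsb1 and D930016D06Rik, at distances of 0.0491, 0.0591 and 0.0747, where the median over all rows was 0.342. Nearest to Kdr were Slc9b2, Chd7 and Foxo6, at 0.0717, 0.0725 and 0.0824 (median 0.440). Nearest to Angpt2 were Cd86, Tnfrsf1a and Sbno2, at 0.171, 0.176 and 0.185 (median 0.609). Tnfrsf1a, a receptor of tumour necrosis factor, had 5.67, 2.59 and 3.73 RPKM in ischemia/reperfusion and 2.72, 4.79 and 2.49 RPKM in sham, high like Angpt2 in ischemia/reperfusion replicate 1 and sham replicate 2. The distances are a description only, and none was computed for Aplnr, which was under the low-count filter.

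The authors' deposited table gives q-values under 0.05 for 6 of the 10 members, 5 higher and 1 lower, where 24.5% of its 45851 rows have one. In the authors' deposited table Vegfa has a log2 fold change of 0.44 with q = 1.24e-14, Kdr 0.63 with q = 9.87e-07 and Angpt1 −0.54 with q = 3.67e-06. For Angpt2 the authors' deposited table lists 0.40 with q = 0.00124, although only 1 of the 3 ischemia/reperfusion libraries was above the highest sham library. The test behind the authors' values is not stated in the labels or headers.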

How the data were processed

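RNA of 6 mouse brain libraries, 3 ischemia/reperfusion and 3 sham, was sequenced in pairs of reads after removal of ribosomal RNA, per the labels' protocols. Per the file headers, the deposited table holds raw read counts and RPKM per row, with positions, and the authors' own log2 fold changes, p-values and q-values. The build was mm10, per the submitters' processing notes; which aligner, counter, annotation and strand rule were used is not stated in the labels or headers. The deposited RPKM equalled counts per kilobase and per 1000000 counts of the library in 100% of values, within a relative tolerance of 0.001. The table has 1896 rows with the same position and counts as another row.

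Counts were fitted with edgeR 4.0.16 (R 4.3.3) as a quasi-likelihood model with robust estimation, TMM factors and the default low-count filter, and p-values were adjusted over all 40170 rows tested at a threshold of 0.05. The biological coefficient of variation was 17.4%. DESeq2 1.42.0, limma-voom (limma 3.58.1), other scalings and filters, gene-symbol rows alone, a replicate block and leaving out each library were alternatives. Ratios were compared by exact permutation tests over libraries. Library totals give a floor of 3 counts, for counting error only. Members, lists and tests were chosen with earlier results of these data known. Named genes were all members, up to 4 genes of smallest p per list, the 3 nearest profiles of Vegfa, Kdr and Angpt2, and rows overlapping a member, not all of which are described. Cldn5 and Pecam1 are named as parts of the ratios, and Slco1a4 was added after its values were seen. Angptl4, Hba-a1, Hba-a2, Ly6c1, Itm2a, Esam, Erg and Eng are named to describe their lists. Of 143 list genes, 142 were matched. Promoter sequences are from RefSeq.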

Additional observations from a re-analysis of the deposited data

How the results depend on the processing

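The number of members called was 0 in each of the alternatives run. Over all rows edgeR called 1, against 2 with upper-quartile factors, 77 with no low-count filter, 0 with a mean of at least 1 CPM, 584 with DESeq2, 4 with limma-voom, 4 without robust estimation and 0 with gene-symbol rows only; the cause was not tested, beyond the fewer rows of the last. Leaving out each library gave 0 to 1057 rows, with 1057 without ischemia/reperfusion replicate 1, 43 without its replicate 2, 34 without sham replicate 2 and 0 in the other omissions. Same-numbered libraries had correlations of −0.0678, 0.0337 and 0.11 of their deviations and share only a number; with the replicate block 0 rows were called, and Vegfa, Kdr and Angpt1 had log2 fold changes of 0.38, 0.56 and −0.61. The log2 difference of the ratios was 0.32 to 1.42 for Angpt2 to Angpt1, 0.20 to 0.53 for Kdr to Flt1, −1.24 to −0.65 for Apln to Aplnr, and, against the endothelial genes, 0.11 to 0.27 for Flt1, 0.37 to 0.71 for Kdr and −0.58 to 0.46 for Tek. The Tek ratio turned to −0.12, −0.22 and −0.58 without ischemia/reperfusion replicates 2 and 3 and sham replicate 2. In the same omissions the Tek log2 fold change turned to −0.07, −0.27 and −0.31. That of Angpt2 ranged over omissions up to 0.75 and turned to −0.21 without ischemia/reperfusion replicate 1. For Apln the range was −0.29 to 0.14, with 0.14 and 0.07 when ischemia/reperfusion replicate 2 or sham replicate 3 was left out. List medians changed sign in some settings: for oligodendrocyte, choroid plexus and striatal markers they were −0.30, 0.28 and −0.32 without ischemia/reperfusion replicates 3, 2 and 1. The sign changed in 6 settings for hypoxia-inducible factors and regulators, 3 for VEGF receptor signalling and 2 for endothelial markers. It changed in 1 setting each for VEGF family, angiopoietin and Tie, and apelin partners, hypoxia-inducible factor targets, and pericyte and smooth muscle markers. Depth limits Aplnr and Vegfc most.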

Other observations

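Other genes of the lists showed how the libraries varied. Sh2d2a, an adaptor that binds Kdr in endothelium and is also made by T cells, had 23, 10 and 15 counts in ischemia/reperfusion replicates 1, 2 and 3, against 3, 4 and 0 counts in sham, with no overlap (edgeR adjusted p = 0.167). Anpep, an aminopeptidase of pericytes, had 32, 32 and 63 counts in ischemia/reperfusion, against 26, 16 and 30 counts in sham, also with no overlap (edgeR adjusted p = 0.321). Hif1an, which inhibits hypoxia-inducible factors, had 5.06, 4.35 and 4.48 RPKM in ischemia/reperfusion, against 3.804, 3.23 and 4.05 RPKM in sham (log2 fold change 0.27 ± 0.11 SE; edgeR adjusted p = 0.296). Pdgfb, the endothelial signal that recruits pericytes, had 12.7, 7.68 and 11.3 RPKM in ischemia/reperfusion, against 6.71, 8.69 and 8.50 RPKM in sham. As for Vegfa, replicates 1 and 3 of ischemia/reperfusion were above every sham library and replicate 2 was not. Nr4a1 and Dusp5, early response genes, were both highest within sham in replicate 2, at 15.3 and 9.89 RPKM, where Vegfa and Angpt2 were highest within sham too.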
